A study of Homo sapiens with 9 samples.

Results

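Genes that carry the switch between an epithelial and a mesenchymal cell state were followed across 9 RNA libraries of drug-adapted human cells. They were 4 keratins (KRT7, KRT8, KRT18 and KRT19), vimentin (VIM), N-cadherin (CDH2), the transcriptional repressors ZEB1, ZEB2 and SNAI2, and the splicing regulator ESRP1. They were chosen by gene name, 10 of the 60683 genes in the count tables, and 7 of them had enough reads to be tested. The cells were labelled HCT 15, a line from a human colorectal adenocarcinoma of genotype WT, grown in RPMI1640 with 10% fetal bovine serum. Cells of 3 libraries had been adapted to oxaliplatin, a platinum drug that binds DNA: 0.5 µM for 7 days, then steps of 1, 2 and 4 µM between day 10 and day 30, with 4 µM kept up afterwards. Cells of 3 more had been adapted to sorafenib, an inhibitor of RAF and receptor tyrosine kinases, in a similar way, at doses that the labels do not give. The remaining 3 libraries came from untreated cells. Whether the adapted cells were clones or mixed cultures is not stated.

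Keratins are intermediate filament proteins of epithelial cells that assemble from a type I and a type II partner, and KRT8 with KRT18 is the first pair made by simple epithelia. Vimentin builds the intermediate filaments of mesenchymal cells, and N-cadherin joins such cells to each other, while E-cadherin (CDH1) joins epithelial cells. ZEB1, ZEB2 and SNAI2 repress epithelial genes through the E-box motif CACCTG, and ESRP1 directs epithelial forms of splicing.

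In the oxaliplatin-adapted cells ZEB1 was higher than in untreated cells, by 3.38-fold, and KRT7, KRT8, KRT18 and VIM were lower, at 0.400, 0.575, 0.623 and 0.769 of the untreated level. The vimentin and keratin messages thus lay on the same side of the untreated level, and CDH2 did not pass the test. The sorafenib-adapted cells passed the test for none of the 7 genes, although 2 of their 3 libraries had ZEB1 at about the level of the oxaliplatin libraries. KRT19, SNAI2 and ESRP1 had at most 8 reads in any library.

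The motif was looked for in the RefSeq promoter windows of the GRCh38.p14 assembly, each running from 250 bases before to 50 bases after an annotated transcript start. Of 35116 such windows of all genes, 20.6% held CACCTG or its reverse complement CAGGTG at least once, and 0.635% held it 3 times or more. Windows were at hand for 5 of the genes. ZEB1 is shown because it rose, and the window of its 7 with the most matches was taken; KRT8 and VIM are shown as genes that fell. Each is written 5′ to 3′ on the gene's strand, with the motif in capitals.
ZEB1, chr10:31318966-31319265, plus strand: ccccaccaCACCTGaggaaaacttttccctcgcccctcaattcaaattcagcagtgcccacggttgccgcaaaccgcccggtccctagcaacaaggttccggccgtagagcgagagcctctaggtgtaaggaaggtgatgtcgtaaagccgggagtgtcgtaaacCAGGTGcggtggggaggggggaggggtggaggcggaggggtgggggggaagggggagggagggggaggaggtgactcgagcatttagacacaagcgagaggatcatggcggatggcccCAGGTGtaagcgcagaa
KRT8, chr12:52926420-52926719, minus strand: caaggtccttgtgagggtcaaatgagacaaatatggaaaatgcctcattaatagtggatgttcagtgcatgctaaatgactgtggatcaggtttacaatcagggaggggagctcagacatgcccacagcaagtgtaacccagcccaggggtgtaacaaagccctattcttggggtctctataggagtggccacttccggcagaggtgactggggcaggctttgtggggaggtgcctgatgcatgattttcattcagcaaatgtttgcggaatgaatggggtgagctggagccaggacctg
VIM, chr10:17227991-17228290, plus strand: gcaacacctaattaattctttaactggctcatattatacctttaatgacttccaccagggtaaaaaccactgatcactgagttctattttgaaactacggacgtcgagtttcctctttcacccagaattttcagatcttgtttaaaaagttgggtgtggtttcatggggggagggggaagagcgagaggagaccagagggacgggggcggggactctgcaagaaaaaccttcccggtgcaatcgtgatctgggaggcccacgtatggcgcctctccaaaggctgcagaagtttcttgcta
The ZEB1 window held 3 matches, at positions -242, -85 and 34 from the transcript start. Another ZEB1 window held 1, at -57, and its other 5 held none. The KRT8, VIM, CDH2 and ZEB2 windows held none. The KRT8 window lay inside the annotated span of that gene (chr12:52897187-52949954), away from its 5′ end, so other KRT8 starts were not covered. No window was at hand for KRT7 or KRT18, which also fell. These are matches of letters within a window and say nothing of binding.

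The libraries held 15797076 to 20936536 counts each. All 9 had low or absent colorectal markers: 10 of 10 listed markers had a median under 1 CPM (a library's counts scaled to 1e+06, with TMM factors), and 6 of them, among them CDX1, CDX2 and KRT20, had no count in any library. Their summed level was 0.243 to 0.542 CPM in the oxaliplatin libraries, 0.113 to 0.375 CPM in the sorafenib libraries and 0.410 to 7.47 CPM in the untreated libraries, where VIL1 made up most of the upper value. Of 12 renal epithelial markers all had a median of at least 1 CPM, and their sums were 809 to 867 CPM, 718 to 798 CPM and 497 to 690 CPM in the same 3 groups. Of 12 fibroblast, endothelial and immune markers 11 had a median under 1 CPM. These markers therefore do not match the labelled tissue, and their part in the results below was not tested. Sorafenib library 1 stood apart from the other sorafenib libraries: its ZEB1, KRT7 and KRT18 levels lay within the untreated range. No source says whether the libraries of a group are separate cultures, and their titles share 1 code per group, so a p-value here covers the spread between these libraries alone, and that spread may be technical. In such bulk samples, fewer cells of a type and less RNA per cell cannot be told apart.

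**Figure D1:**
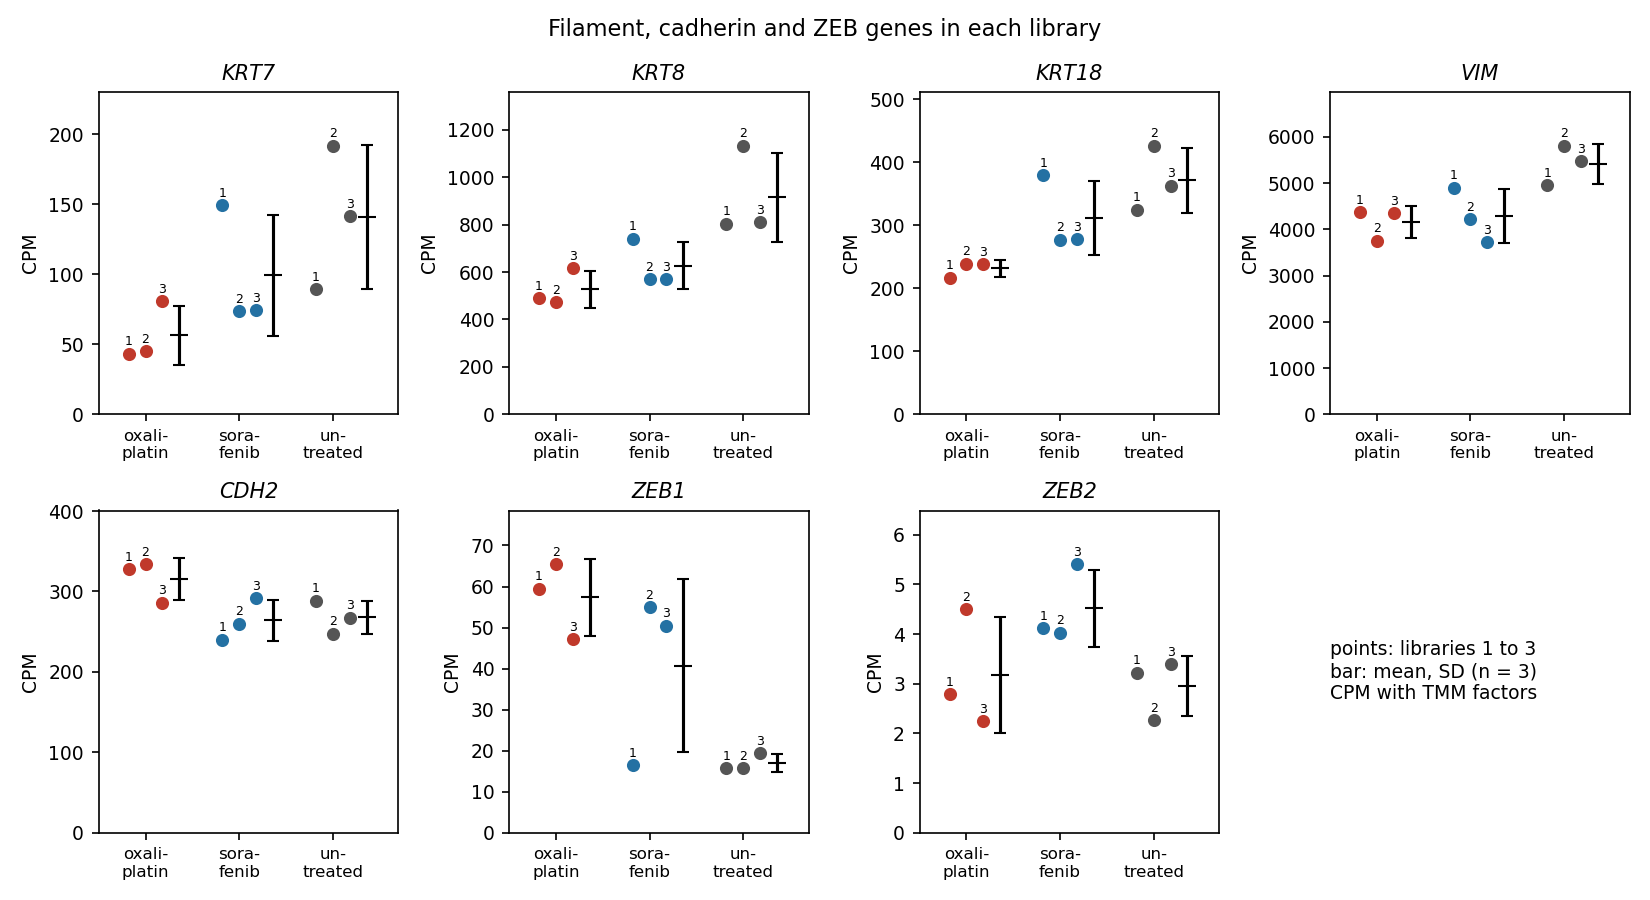
Level of the 7 tested genes in CPM (vertical axes, linear from 0) in each library of the oxaliplatin, sorafenib and untreated groups; points are libraries 1 to 3, and the bar beside them is the mean with its SD (n = 3). The ZEB1 panel shows the 3 oxaliplatin libraries at 47.2 to 65.4 CPM, sorafenib library 1 at 16.5 CPM below the other 2 sorafenib libraries, and the untreated libraries at 15.7 to 19.4 CPM.

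Among the filament genes, vimentin was by far the most abundant. Per kilobase of annotated exon, the mean level over all 9 libraries was 895 CPM for VIM, 100.2 CPM for KRT8, 94.7 CPM for KRT18, 57.1 CPM for CDH2 and 24.1 CPM for KRT7. ZEB1 stood at 4.43 CPM per kilobase and ZEB2 at 0.142 CPM per kilobase. On this scale VIM ranked between 9 and 16 of 19884 protein-coding genes, depending on the library, and KRT8 and KRT18 between 188 and 378. The KRT8 to KRT18 ratio per kilobase was 1.06 ± 0.143 in oxaliplatin libraries, 0.944 ± 0.0277 in sorafenib libraries and 1.15 ± 0.0995 in untreated libraries (SD, n = 3 each). On this scale KRT18 was the higher in all 3 sorafenib libraries (ratio 0.912 to 0.960) and KRT8 in all 3 untreated libraries (1.04 to 1.24), while the oxaliplatin libraries lay on both sides of 1 (0.924 to 1.21). In counts not divided by length KRT8 was the higher in all 9 libraries (ratio 1.95 to 2.66). Which of the pair was the higher thus depended on the annotated exon lengths, 6881 bases for KRT8 and 3218 for KRT18.

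KRT8 (chr12:52897187-52949954, minus strand), the type II partner, had 491, 472 and 617 CPM in oxaliplatin libraries 1 to 3, against 740, 569 and 570 CPM in sorafenib libraries and 805, 1133 and 811 CPM in untreated libraries. Every oxaliplatin and every sorafenib library was below every untreated library. The log2 fold change was -0.80 ± 0.18 (SE) for oxaliplatin over untreated, with an adjusted p of 0.00897 (quasi-likelihood test of edgeR, Benjamini-Hochberg adjustment over 16159 genes, used throughout). For sorafenib over untreated it was -0.55 ± 0.18 with an adjusted p of 0.0916.

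KRT18 (chr12:52948871-52952906, plus strand), the type I partner, had 217, 239 and 239 CPM in oxaliplatin libraries, against 380, 277 and 277 CPM in sorafenib libraries and 325, 426 and 363 CPM in untreated libraries. All oxaliplatin libraries lay below all sorafenib and all untreated libraries, and the sorafenib and untreated libraries overlapped. KRT18 fell by 0.68 ± 0.15 on the log2 scale in oxaliplatin over untreated (adjusted p = 0.00891), and sorafenib over untreated was -0.25 ± 0.15 (adjusted p = 0.316). KRT18 and KRT8 are neighbours that overlap at their ends on opposite strands. Reads from the overlap cannot be divided unless the counting used strand, which is not given in the sources used here. Both genes also have many processed pseudogenes: 51 KRT8 pseudogene rows together held 6.39% to 13.5% as many counts as KRT8 itself, and 67 KRT18 rows 0.855% to 1.68% as many as KRT18. With the pseudogene counts added, KRT8 was at -0.75 (adjusted p = 0.00927) and KRT18 at -0.67 (adjusted p = 0.00922) in oxaliplatin over untreated.

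KRT7 (chr12:52232520-52252186, plus strand), a type II keratin of ducts and glands, had 43.3, 45.1 and 80.6 CPM in oxaliplatin libraries, against 149, 73.7 and 74.5 CPM in sorafenib libraries and 89.2, 192 and 142 CPM in untreated libraries. The oxaliplatin libraries lay below all untreated libraries, with oxaliplatin 3 and untreated 1 close to each other, and the sorafenib libraries overlapped with both groups. KRT7 fell by 1.32 ± 0.40 on the log2 scale in oxaliplatin over untreated (adjusted p = 0.0377), and was at -0.51 ± 0.39 in sorafenib over untreated (adjusted p = 0.459). The KRT7 call was lost when untreated 2 or 3, or oxaliplatin 1 or 2, was left out, with adjusted p between 0.0837 and 0.124. KRT7 overlaps KRT86, a hair keratin gene on the same strand, which had 144 to 321 counts per library against 833 to 3473 for KRT7, and the antisense gene KRT7-AS, with 42 to 145 counts.

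KRT19 (chr17:41523617-41528308, minus strand), a type I keratin of simple epithelia, was close to absent. It had 0 counts in each oxaliplatin library, which at a limit of 3 counts allows up to 0.137, 0.163 and 0.182 CPM. It had 6, 7 and 5 counts in sorafenib libraries and 7, 3 and 0 counts in untreated libraries. KRT19 was below the filter on low counts. Tested without that filter over 31624 genes, its adjusted p was 0.0627 for oxaliplatin over untreated, 0.712 for sorafenib over untreated and 0.0513 for oxaliplatin over sorafenib.

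VIM (chr10:17228241-17237593, plus strand) had 4365, 3757 and 4355 CPM in oxaliplatin libraries, against 4897, 4221 and 3726 CPM in sorafenib libraries and 4948, 5806 and 5477 CPM in untreated libraries. All libraries of both drugs lay below all untreated libraries, with sorafenib 1 and untreated 1 next to each other. VIM fell by 0.38 ± 0.13 on the log2 scale in oxaliplatin over untreated, with an adjusted p of 0.0484, just under the threshold of 0.05. That call was kept in 7 of 18 alternative analyses, and in 2 of the 9 that left out 1 library, those without untreated 1 or sorafenib 1 (adjusted p 0.0321 to 0.164 over the 9). For sorafenib over untreated VIM was at -0.34 ± 0.13 (adjusted p = 0.141). As a share of all counts, VIM took 0.435% ± 0.0347 in oxaliplatin libraries, 0.424% ± 0.0537 in sorafenib libraries and 0.521% ± 0.0278 in untreated libraries (SD, n = 3 each), and KRT7, KRT8 and KRT18 together took 0.0851% ± 0.0108, 0.103% ± 0.0182 and 0.137% ± 0.0243 in the same order of groups.

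The balance of KRT7, KRT8 and KRT18 to vimentin was lower in the oxaliplatin libraries. The summed level of KRT7, KRT8 and KRT18 per kilobase, divided by that of VIM, was 0.176, 0.211 and 0.217 in oxaliplatin libraries, 0.276, 0.228 and 0.259 in sorafenib libraries, and 0.250, 0.306 and 0.250 in untreated libraries. The oxaliplatin values lay below all others, and the sorafenib and untreated values overlapped. In counts not divided by length the margin was thin, with oxaliplatin 3 at 0.215 and sorafenib 2 at 0.218. KRT80, another abundant keratin here, was not in the sum. No test was run on this ratio, and 3 libraries against 3 could not give an exact permutation p below 0.1.

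CDH2 (chr18:27950966-28177130, minus strand), the gene of N-cadherin, had 327, 334 and 286 CPM in oxaliplatin libraries, against 240, 260 and 292 CPM in sorafenib libraries and 289, 247 and 267 CPM in untreated libraries. The groups overlapped in all 3 comparisons. The log2 fold change was 0.24 ± 0.11 for oxaliplatin over untreated (adjusted p = 0.133), and with scaling by library size only it was 0.35 with an adjusted p of 0.0484. It was -0.02 ± 0.11 for sorafenib over untreated (adjusted p = 0.932). CDH1, the gene of E-cadherin, had 0 counts in all 9 libraries, so N-cadherin was present and E-cadherin message was not detected in every group, untreated cells included.

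ZEB1 (chr10:31318495-31529814, plus strand) had 59.5, 65.4 and 47.2 CPM in oxaliplatin libraries, against 16.5, 55.0 and 50.5 CPM in sorafenib libraries and 15.7, 15.7 and 19.4 CPM in untreated libraries. The oxaliplatin libraries all lay above the untreated ones, and sorafenib 1 lay among the untreated libraries while sorafenib 2 and 3 lay within the oxaliplatin range. ZEB1 rose by 1.76 ± 0.39 on the log2 scale in oxaliplatin over untreated (adjusted p = 0.0122). This call was kept in 17 of 18 alternatives and missed the threshold without untreated 2 (adjusted p = 0.0525). The pseudogene SPTLC1P1, which lies in ZEB1 on the same strand, had 143, 184 and 49 counts in oxaliplatin libraries, 64, 70 and 90 counts in sorafenib libraries and 40, 32 and 52 counts in untreated libraries, against 268 to 1300 for ZEB1.

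For sorafenib over untreated the ZEB1 value turned on 1 library. With all 3 sorafenib libraries it was 1.26 ± 0.39 on the log2 scale with an adjusted p of 0.0937. Without sorafenib 1 it was 1.64 with an adjusted p of 0.00346, and KRT8 was then at -0.69 with an adjusted p of 0.0478, so that 2 of the 7 genes were called. The other 5 genes stayed above the threshold without that library.

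ZEB2 (chr2:144364364-144521057, minus strand), the relative of ZEB1, had 2.79, 4.50 and 2.25 CPM in oxaliplatin libraries, 4.12, 4.02 and 5.41 CPM in sorafenib libraries and 3.22, 2.26 and 3.39 CPM in untreated libraries. Its sorafenib libraries lay above the untreated ones without passing the test (log2 fold change 0.61 ± 0.29, adjusted p = 0.216), and its oxaliplatin libraries overlapped with both other groups (0.10 ± 0.29 over untreated, adjusted p = 0.809).

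SNAI2 (chr8:48917598-48921740, minus strand), which encodes the repressor SLUG, had 6, 8 and 3 counts in oxaliplatin libraries, 0, 0 and 1 counts in sorafenib libraries, and 0, 2 and 0 counts in untreated libraries. Only the oxaliplatin libraries reached 3 counts, and without the filter on low counts the adjusted p was 0.136 for oxaliplatin over untreated. ESRP1 (chr8:94641074-94707466, plus strand) had 0 counts in all oxaliplatin and untreated libraries and 3, 1 and 0 counts in sorafenib libraries. No difference in ESRP1 was detectable at this depth.

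**Figure D2:**
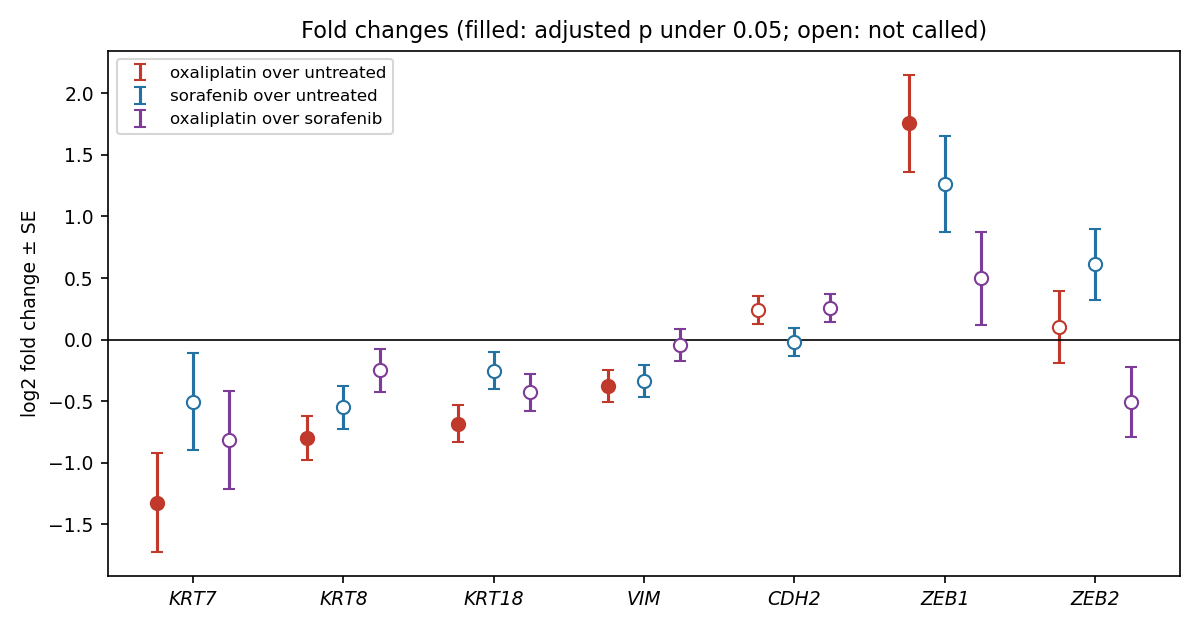
Log2 fold change with its standard error (vertical axis) of each tested gene in 3 comparisons; filled points passed an adjusted p of 0.05 and open points did not. All 5 filled points belong to oxaliplatin over untreated, with ZEB1 at 1.76 and KRT7 at -1.32 as the extremes.

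Counted together, 1 of the 7 tested genes was higher and 4 were lower in oxaliplatin over untreated, in a comparison where 31.7% of all 16159 tested genes were called, 16.2% higher and 15.5% lower. The same 5 genes were those whose oxaliplatin and untreated libraries did not overlap, against 48.1% of all tested genes. In sorafenib over untreated 0 of 7 were called, against 4.8% of all tested genes (2.82% higher and 1.97% lower), and KRT8, VIM and ZEB2 had groups that did not overlap, against 29.8% of all. DESeq2 called 2 there, KRT8 (adjusted p = 0.0433) and ZEB1 (adjusted p = 0.00974), and KRT8, VIM and ZEB1 had an unadjusted p under 0.05. In oxaliplatin over sorafenib 0 of 7 were called by edgeR and by DESeq2, against 10.3% of all tested genes (5.2% higher and 5.07% lower), and KRT18 alone had groups that did not overlap, against 34.9% of all. The nearest were KRT18, at -0.43 ± 0.15 with an adjusted p of 0.0958, and CDH2, at 0.26 ± 0.11 with an adjusted p of 0.169, and these 2 had an unadjusted p under 0.05. The differences between the drugs for ZEB1 (0.50 ± 0.38, adjusted p = 0.436) and KRT7 (-0.82 ± 0.40, adjusted p = 0.221) did not pass the test. The median log2 fold change of the 7 was -0.38, -0.25 and -0.25 in the 3 comparisons, against 0.02, 0.00 and -0.01 over all tested genes. The comparisons share libraries and are not independent of each other.

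The base composition of the genes differed. KRT7 had an exon GC content of 62.9%, higher than 93.3% of tested genes, KRT8 had 56.2% and KRT18 55.7%, VIM 46.9% and CDH2 45%. ZEB1 had 38.5%, higher than 9.87% of tested genes, and ZEB2, which was not called, had 39.1%, higher than 12.1%. In oxaliplatin over untreated the median log2 fold change was 0.24 in the fifth of genes with the lowest GC content and -0.19 in the fifth with the highest. When each library was corrected for GC content and exon length, an alternative added after the data had been seen, ZEB1 was at 1.29 (adjusted p = 0.0183), KRT7 at -1.16 (adjusted p = 0.0277), KRT8 at -0.86, KRT18 at -0.51 and VIM at -0.51, and all 5 were still called.

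Library by library, ZEB1 and the summed level of KRT7, KRT8 and KRT18 separated in opposite directions. The 5 libraries with ZEB1 at 47.2 CPM or more, which were the 3 oxaliplatin libraries and sorafenib 2 and 3, had a summed KRT7, KRT8 and KRT18 level of 751 to 936 CPM. Sorafenib 1, with ZEB1 at 16.5 CPM, had a sum of 1269 CPM, and the 3 untreated libraries, with ZEB1 at 15.7 to 19.4 CPM, had 1218 to 1751 CPM. The abundant keratin KRT80, which is not in this sum, did not split so. It had 594, 648 and 520 CPM in oxaliplatin libraries and 733, 771 and 756 CPM in sorafenib libraries. In untreated libraries it had 726, 1242 and 723 CPM. The opposite direction was not particular to these keratins. VIM had 3726 to 4365 CPM in the 5 libraries with high ZEB1 and 4897 to 5806 CPM in the others. Over the 9 libraries the correlation with ZEB1 (centred log2 CPM) was -0.869 for VIM, -0.865 for KRT7, -0.907 for KRT8 and -0.907 for KRT18. Within the oxaliplatin group the library with the lowest ZEB1 had the highest keratin sum, and within the untreated group ZEB1 was lowest in untreated 1 and 2, which had the lowest and the highest keratin sum. The ZEB1 offset fitted in the GC and length correction split the libraries in the same way. It was -0.333 to -0.169 (log2) in untreated libraries and -0.180 in sorafenib 1, against 0.0897 to 0.293 in the 5 others. The KRT7 and KRT18 offsets had the opposite sign in every library but oxaliplatin 3, and those of KRT8 did not split so. The part of this trend in the pattern was not tested.

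**Figure D3:**
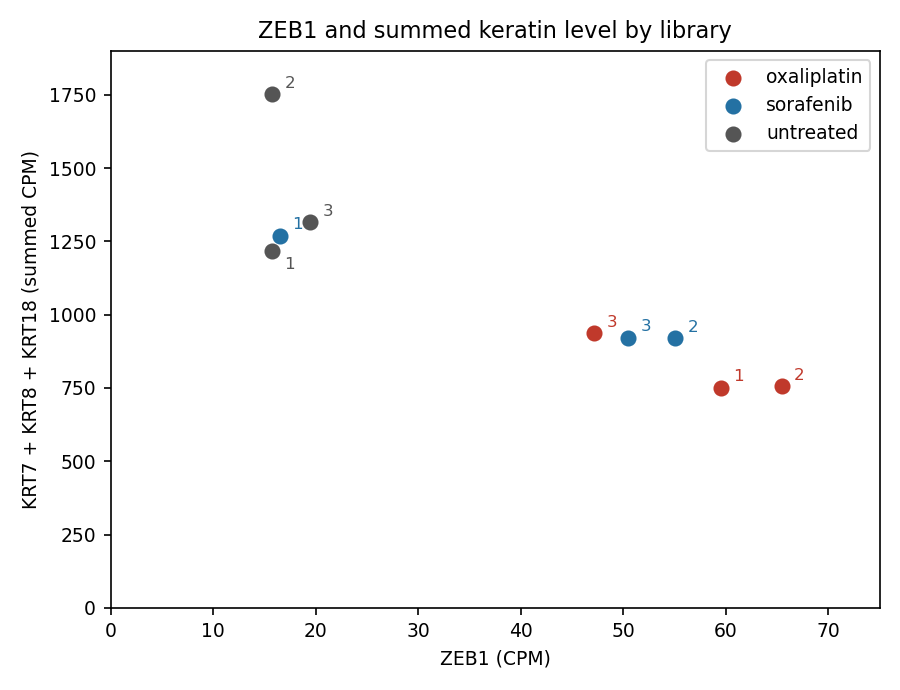
Summed level of KRT7, KRT8 and KRT18 (vertical axis, CPM) against the ZEB1 level (horizontal axis, CPM) in each of the 9 libraries, numbered within the oxaliplatin, sorafenib and untreated groups. Sorafenib 1 lies beside the untreated libraries, and sorafenib 2 and 3 lie beside the oxaliplatin libraries at sums of 919 and 922 CPM.

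Of 27 other keratin genes, 15 had no count in any library and 7 were tested. In oxaliplatin over untreated 3 were lower and 0 higher, where 15.5% of all tested genes were lower and 16.2% higher. The median of the 7 was -1.16 against 0.02 over all tested genes. KRT15, a type I keratin of basal cells, had 2.06, 1.79 and 1.88 CPM in oxaliplatin libraries, 8.36, 10.4 and 9.10 CPM in sorafenib libraries and 7.38, 5.91 and 6.36 CPM in untreated libraries. It fell by 1.77 ± 0.18 on the log2 scale in oxaliplatin over untreated (adjusted p = 0.000822) and by 2.27 ± 0.18 in oxaliplatin over sorafenib (adjusted p = 0.000162), with no overlap in either. KRT10, a type I keratin of differentiated epidermis, was lower in oxaliplatin over untreated (-1.16 ± 0.20, adjusted p = 0.00363) and over sorafenib (-0.83 ± 0.20, adjusted p = 0.0268). The second of these calls was lost without oxaliplatin 1 or 2 or sorafenib 1 or 3 (adjusted p 0.0511 to 0.0997). KRT80, an abundant type II keratin here, averaged 587 ± 64.1 CPM in oxaliplatin libraries and 897 ± 299 CPM in untreated libraries (SD, n = 3 each), where untreated 2 alone had 1242 CPM. Its call (-0.61 ± 0.20, adjusted p = 0.0404) was kept in 8 of 18 alternatives and was lost without untreated 2 (adjusted p = 0.109), without any 1 library of either drug (0.0535 to 0.107), and after the correction for GC content and exon length (0.118). In sorafenib over untreated 0 of the 7 were called, against 4.8% of all tested genes.

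Among 20 other cadherins, CDH1 and 6 more had no count at all, and 4 were tested. CDH6, the gene of K-cadherin of the kidney, had 34.4, 36.2 and 30.2 CPM in oxaliplatin libraries, 10.5, 9.47 and 9.63 CPM in sorafenib libraries and 11.3, 7.56 and 6.04 CPM in untreated libraries. It rose by 2.02 ± 0.21 on the log2 scale in oxaliplatin over untreated (adjusted p = 0.000876) and by 1.77 ± 0.21 in oxaliplatin over sorafenib (adjusted p = 0.00113). CDH16, the kidney-specific cadherin, rose by 1.32 ± 0.28 in oxaliplatin over untreated (adjusted p = 0.00808). CDH24 rose by 0.53 ± 0.18 there (adjusted p = 0.0437), a call kept in 8 of 18 alternatives and lost without untreated 2 or 3, oxaliplatin 1 or 3, or any sorafenib library (adjusted p 0.0529 to 0.142). CDH4, the gene of R-cadherin, was the 1 called in sorafenib over untreated, at 11.5 ± 0.616 CPM against 4.05 ± 0.846 CPM (log2 fold change 1.503 ± 0.30, adjusted p = 0.0277). It was not called without untreated 2 or 3 or sorafenib 2 or 3 (adjusted p 0.0711 to 0.0981).

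**Figure D4:**
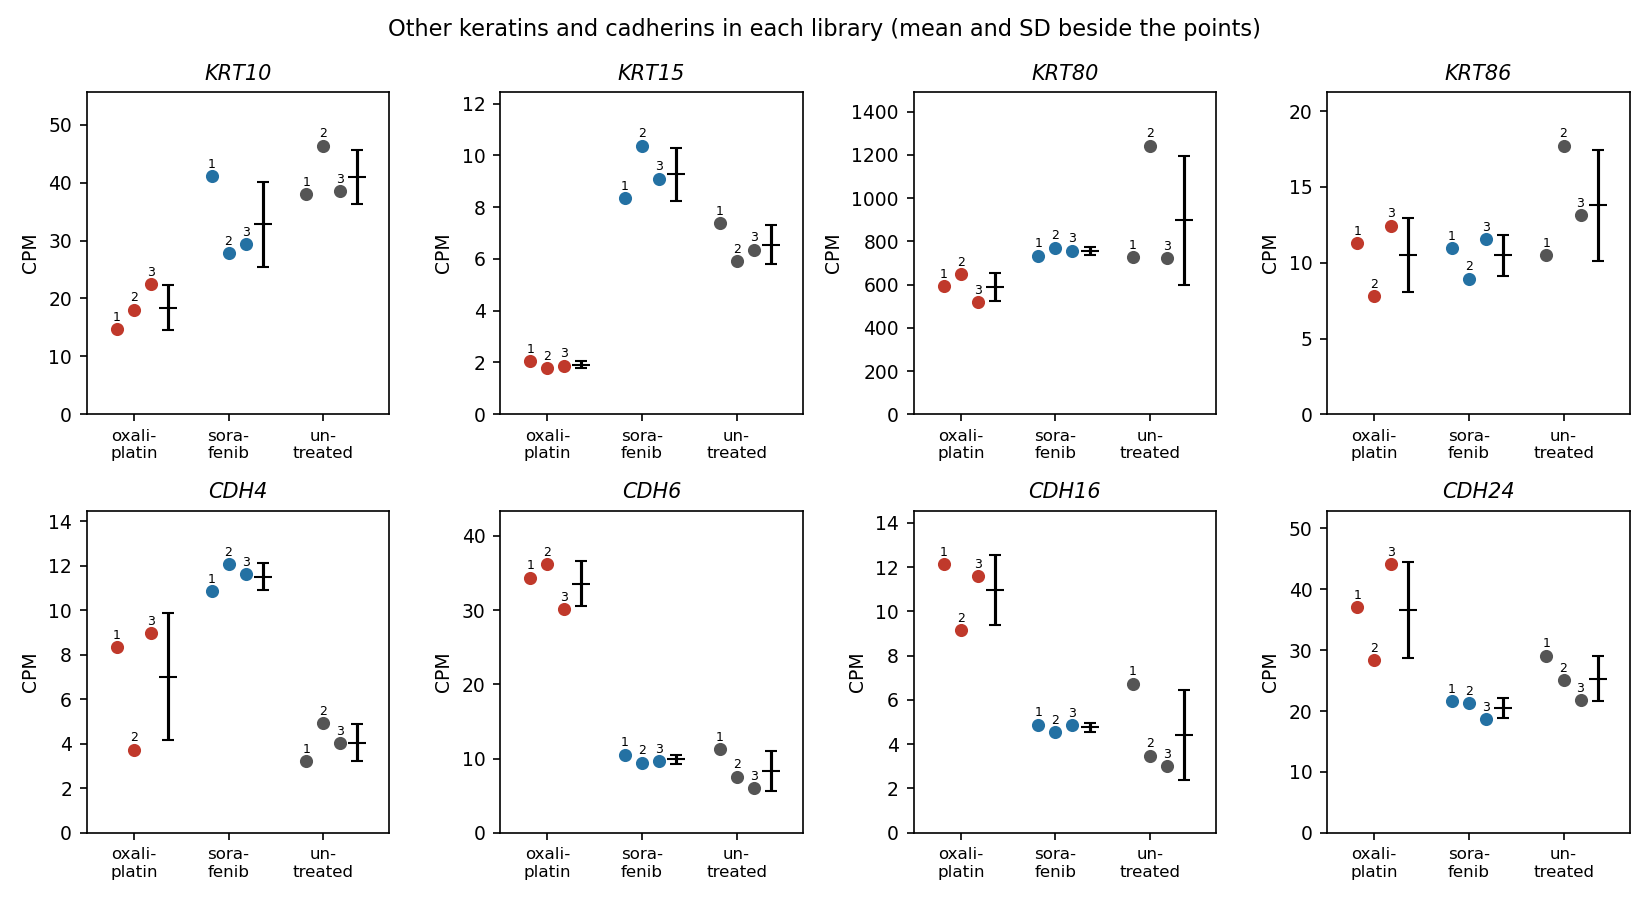
Level of 4 other keratins and 4 other cadherins in CPM (vertical axes, linear from 0) in each library of the oxaliplatin, sorafenib and untreated groups, with the mean and SD (n = 3) beside the points. CDH6 is at 30.2 to 36.2 CPM in oxaliplatin libraries and at 11.3 CPM or less in all others, and KRT15 is lowest in the oxaliplatin libraries.

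The wider filament and junction genes changed in both directions, as did all tested genes in oxaliplatin over untreated (16.2% higher and 15.5% lower). Of 6 other tested intermediate filament genes 3 were lower in oxaliplatin over untreated, and all 3 encode nuclear lamins: LMNB1 at -0.74 ± 0.11 (adjusted p = 0.00203), LMNA at -0.48 ± 0.14 and LMNB2 at -0.42 ± 0.14. The LMNA call was lost without untreated 2 or 3 or oxaliplatin 1 or 2 (adjusted p 0.0657 to 0.106), and the LMNB2 call without any of these or untreated 1 or sorafenib 2 or 3 (0.0581 to 0.147). LMNB1 was lower by nearly the same amount in sorafenib over untreated (-0.74 ± 0.11, adjusted p = 0.00748), with 75.9, 80.0 and 90.9 CPM in sorafenib libraries against 127, 145 and 139 CPM in untreated libraries. Of 14 tested genes that anchor filaments or build desmosomes, 4 were higher and 1 lower in oxaliplatin over untreated. PPL, the gene of periplakin, rose by 1.19 ± 0.15 there (adjusted p = 0.00142) and PKP2, of plakophilin 2, by 1.34 ± 0.30 (adjusted p = 0.0102). DST, of dystonin, was at 1.16 ± 0.21 (adjusted p = 0.00419), but at 0.24 with an adjusted p of 0.102 after the correction for GC content and length. Of 5 tested genes in a list of catenins with AFDN and VCL, AFDN, of afadin, rose by 1.16 ± 0.22 in oxaliplatin over untreated. CTNNA1, of alpha-catenin, fell by 0.47 ± 0.11 there.

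Other factors and targets of the switch were also read. Of 14 other transcription factors 10 were tested, and TWIST1, PRRX1 and GSC had no count in any library. SNAI1, the relative of SNAI2, had 4.94, 6.18 and 5.77 CPM in oxaliplatin libraries, 3.42, 4.31 and 4.23 CPM in sorafenib libraries and 3.81, 8.61 and 7.73 CPM in untreated libraries, and was not called in any comparison. SOX9 rose by 1.55 ± 0.19 on the log2 scale in oxaliplatin over untreated (adjusted p = 0.00133) and FOXC2 fell by 0.91 ± 0.14 (adjusted p = 0.00296). In all, 4 of the 10 were higher and 1 lower, where 16.2% of all tested genes were higher and 15.5% lower. Of 8 co-repressor genes 0 were higher and 2 lower, HDAC1 at -0.36 ± 0.11 (adjusted p = 0.0351) and HDAC2 at -0.33 ± 0.11 (adjusted p = 0.0438). Both calls were lost without untreated 2 or 3, any oxaliplatin library or sorafenib 2 (adjusted p 0.0507 to 0.132), and that of HDAC2 also without sorafenib 3 (0.0611).

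Of 24 epithelial programme genes 15 had a median under 1 CPM, and of the 13 tested 5 were lower and 0 higher in oxaliplatin over untreated. Of all tested genes 15.5% were lower and 16.2% higher there. KLF5, an epithelial transcription factor, fell by 0.60 ± 0.14 (adjusted p = 0.0102) and PRSS8, a membrane protease, by 0.94 ± 0.23 (adjusted p = 0.0146), and EPCAM, CLDN3 and CLDN7 were the others. Apart from KLF5 these were low, with at most 1.38 CPM for EPCAM, 1.82 for CLDN7, 3.81 for PRSS8 and 5.16 for CLDN3. The abundant MAL2 (560 to 805 CPM), CD24 (249 to 577 CPM) and ELF3 (175 to 287 CPM) were not called there. The summed level of the list overlapped, at 1307 to 1702 CPM in oxaliplatin libraries and 1355 to 1756 CPM in untreated libraries. PRSS8 missed the threshold without untreated 2 (adjusted p = 0.0536), EPCAM without untreated 2 or 3 or oxaliplatin 1 or 3 (0.0504 to 0.0746), and CLDN3 without any 1 library other than sorafenib 1 (0.0541 to 0.131). After the GC and length correction CLDN3 was at -0.18 with an adjusted p of 0.590, and it was called in 4 of 18 alternatives. Of 12 tested mesenchymal genes 2 were higher and 0 lower, against the same shares of all tested genes. FN1, the gene of fibronectin, had 211, 212 and 204 CPM in oxaliplatin libraries, 14.8, 17.8 and 17.7 CPM in sorafenib libraries and 12.9, 8.95 and 9.01 CPM in untreated libraries, a rise of 4.34 ± 0.17 on the log2 scale over untreated (adjusted p = 3.3e-06). ACTA2, of smooth muscle actin, rose by 1.74 ± 0.26 (adjusted p = 0.00225). Of 9 splicing factors tied to the switch, RBFOX2 rose by 1.06 ± 0.20 (adjusted p = 0.00477), HNRNPM fell by 0.84 ± 0.16 (adjusted p = 0.00561), and QKI, at 1.01 ± 0.20 (adjusted p = 0.00601), was at 0.32 with an adjusted p of 0.219 after the GC and length correction.

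The genes whose profile over the 9 libraries was most like a member's were found by the root mean square difference of log2 CPM, each gene centred on its own mean, among 9025 protein-coding genes that averaged 10 CPM or more. For KRT18 they were MGMT at 0.0457, DCTN3 and TUFM, and for KRT8 they were S100A10 at 0.0744, AP2S1 and RPL9, while the distance between KRT8 and KRT18 themselves was 0.160. For KRT7 they were NUPR1 at 0.173, AURKAIP1 and EIF4EBP1, for VIM SRSF7 at 0.0548, TMEM120A and TRIM28, and for CDH2 VTA1 at 0.0499 and SNX2. For ZEB1 they were DMXL2 at 0.253, CHD9 and SRRM2. The distance grows with a gene's own range, and the median over all candidates was 0.903 for ZEB1, 0.717 for KRT7, 0.430 for KRT8, 0.377 for KRT18, 0.310 for VIM and 0.312 for CDH2.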

How the data were processed

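The deposited files hold raw counts per gene for 9 libraries of mRNA, 1 file each, made by the authors with featureCounts against GRCh38, per the submitters' processing notes, which also name DESeq2 and give no versions. The aligner, annotation release, strand setting and treatment of multiply aligned reads are not given in the sources used here. Counts were analysed in R 4.3.3 with edgeR 4.0.16: filterByExpr left 16159 of 60683 genes, TMM factors lay between 0.944 and 1.05, and a robust quasi-likelihood fit over the 3 groups (common biological coefficient of variation 0.224) gave 2-sided tests of 3 contrasts. Benjamini-Hochberg adjustment ran over all 16159 genes, and calls needed an adjusted p under 0.05. CPM use the TMM factors, exon lengths, GC content and loci come from GENCODE on GRCh38, and promoter sequences from RefSeq GRCh38.p14.

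The members and 14 further gene lists were chosen with earlier results of these data known. All members are given. From each further list the text takes, per comparison, up to 3 called genes with the smallest adjusted p and a mean of at least 1 CPM, and the members' 3 nearest genes by profile (1 of these is not reported here). Genes outside this rule (CDH1, KRT86, SNAI1, EPCAM, CLDN7, CD24, ELF3, SPTLC1P1, KRT7-AS, VIL1, CLDN4, KRT17, COL5A1 and CD44) were chosen after their values were seen. Libraries of a group differed by more than sampling noise, and each was counted as a sample. The procedure was tested on simulated data. Alternatives were RLE factors, library size only, other filters, a 2-fold threshold, fits of 2 groups, DESeq2 1.42.0, a replicate block, pseudogene counts added, each library left out and, added after the data had been seen, a GC and length correction (loess, span 0.5). Limits of 3 counts cover counting error only.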

Additional observations from a re-analysis of the deposited data

How the results depend on the processing

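KRT8 and KRT18 stayed called in oxaliplatin over untreated in 18 of 18 alternatives, ZEB1 in 17, KRT7 in 12 and VIM in 7, and none of these 5 changed sign. The 2-fold limit is not among these 18, and KRT8, KRT18 and VIM did not pass it. The cause of the changes below was not tested. At a change of at least 2-fold the genes called were 1512, 314 and 602 in oxaliplatin over untreated, sorafenib over untreated and oxaliplatin over sorafenib, against 5123, 775 and 1659 without that limit, and the members called in the first were 2, ZEB1 and KRT7. For sorafenib over untreated the genes called were 311 in a fit of 2 groups only, 1796 with DESeq2 and 1229 with the GC and length correction, and DESeq2 called 2 members. With libraries left out in turn the genes called ranged from 2913 to 5403, 113 to 1743 and 572 to 1949, and the members called from 2 to 5 in oxaliplatin over untreated and from 0 to 2 in sorafenib over untreated. The lowest, 2 members, came without untreated 2, and 3 remained called without untreated 3, oxaliplatin 1 or oxaliplatin 2. The genes called in oxaliplatin over sorafenib were 825 without sorafenib 1.

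Same-numbered libraries of different groups deviated from their group means with correlations of -0.127 to 0.0534 across genes. For different numbers these were -0.120 to 0.186, so no pairing by number was seen. What a number shares is not stated, and such weak correlations cannot settle it. With the number as a replicate block, 3 members were called in oxaliplatin over untreated (KRT7 and VIM were not, at adjusted p of 0.0792 and 0.0965), and 184 and 809 genes in sorafenib over untreated and oxaliplatin over sorafenib.

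Small values changed sign. ZEB2 in oxaliplatin over untreated was at -0.71 with the GC and length correction, and with 1 library left out it ranged from -0.22 to 0.30, below 0 without oxaliplatin 2 (-0.22) and untreated 2 (-0.06). CDH2 in sorafenib over untreated was at 0.017 with library size only, and ranged from -0.099 to 0.043 with 1 library left out, above 0 without untreated 1 (0.034) and sorafenib 1 (0.043). VIM in oxaliplatin over sorafenib was at 0.036 with library size only, and ranged from -0.135 to 0.062, above 0 without oxaliplatin 2 (0.027) and sorafenib 1 (0.062). Scaling by library size only moved the median of all genes in oxaliplatin over untreated by 0.12 (log2); VIM was then at -0.26 (adjusted p = 0.115), and 3395 genes were higher and 1794 lower, against 2619 and 2504 with TMM. With the GC and length correction these were 1883 and 3212, and 520 and 709 in sorafenib over untreated, against 456 and 319. In oxaliplatin over sorafenib 1072 were higher and 599 lower with library size only, and 997 and 1395 with the correction, against 840 and 819. KRT19, SNAI2 and ESRP1 had too few counts to pass the filter. The alternative that scales by a deposited gene length was not run, since the length used came from GENCODE.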

Other observations

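A few low or uneven genes of the epithelial and keratin lists differed more between libraries of 1 group than between groups. CLDN4, the gene of the tight junction protein claudin 4, had 62.6, 65.3 and 0.546 CPM in oxaliplatin libraries, 185, 154 and 152 CPM in sorafenib libraries and 164, 4.09 and 2.54 CPM in untreated libraries. It was called in no comparison (edgeR adjusted p 0.498 to 0.872). KRT17, a type I keratin of stressed epithelia, had 0.870, 0.379 and 0.911 CPM in oxaliplatin libraries, 0 in all sorafenib libraries and 0.0586, 2.48 and 2.28 CPM in untreated libraries. VIL1, of villin, had 6.90 and 7.26 CPM in untreated 2 and 3, 0.176 CPM in untreated 1, and 0.107 CPM or less in every library of either drug. Untreated 1 thus stood apart from untreated 2 and 3 in CLDN4, KRT17 and VIL1. TAGLN, of the mesenchymal list, also had 2.17 CPM in untreated 1 against 7.56 and 7.68 CPM in untreated 2 and 3.

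Of 12 tested mesenchymal genes 4 were lower and 2 higher in sorafenib over untreated, where 1.97% of all tested genes were lower and 2.82% higher. Without untreated 2 none of these 6 calls remained: the adjusted p was then 0.0519 for S100A4, 0.0521 for TAGLN, 0.0791 for COL5A1, 0.0792 for COL1A1, 0.133 for FN1 and 0.156 for CD44. S100A4, a calcium-binding protein of motile cells, averaged 8.21 ± 0.435 CPM in sorafenib libraries and 15.5 ± 1.05 CPM in untreated libraries (SD, n = 3 each), a fall of 0.92 ± 0.14 on the log2 scale (adjusted p = 0.0113). The S100A4 call was also missed without sorafenib 2 or sorafenib 3 (adjusted p 0.0612 and 0.0621). COL1A1, of type I collagen, averaged 1.60 ± 0.382 CPM in sorafenib libraries and 29.8 ± 20.6 CPM in untreated libraries, with 6.04 CPM in untreated 1 and 43.0 and 40.5 CPM in untreated 2 and 3, and was called in 11 of 18 alternatives. In oxaliplatin over sorafenib 6 of the 12 were higher and 1 lower, where 5.2% of all tested genes were higher and 5.07% lower. FN1, S100A4 and TAGLN, with the smallest adjusted p there, kept their calls in 18 of 18 alternatives, and COL1A1 in 10. TGFBI, a matrix protein induced by TGF-beta, averaged 1379 ± 265 CPM in oxaliplatin libraries, 488 ± 33.4 CPM in sorafenib libraries and 948 ± 124 CPM in untreated libraries. It was lower in sorafenib over untreated (-0.96 ± 0.15, adjusted p = 0.0123, but 0.0507 to 0.0639 without untreated 3, sorafenib 2 or sorafenib 3) and higher in oxaliplatin over sorafenib (1.497 ± 0.16, adjusted p = 0.000605).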
